A study of Mus musculus with 9 samples.

Results

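Collagen chain genes encode the alpha chains from which the collagens of the extracellular matrix are assembled. They were taken here as every gene whose symbol has the form of Col, a type number, the letter a and a chain number, and 44 of the 19938 genes measured met this rule. By the structure of their proteins 11 encode chains of fibrillar collagens, 9 of network-forming collagens, 9 of fibril-associated collagens (FACIT) and 15 of other collagens. RNA of 9 samples was hybridised to 1 expression array each. The osteosarcoma group held 3 cell lines, 493H, 494H and 716H, grown from tumours of adult C57BL/6 mice of the genotype Osx-Cre p53fl/fl Rbfl/fl, in which Cre driven by the promoter of the osteoblast-lineage gene Osx deletes floxed p53 and Rb. Lines 493H and 716H came from females and line 494H from a male, the labels describe all of them as fibroblastic, and they were harvested subconfluent below passage 8. The osteoblast group held 3 cultures of Kusa4b10, a stromal line from mouse bone marrow, kept for 21 days in medium with ascorbate, and the pre-osteoblast group 3 undifferentiated cultures of the same line. In the osteosarcoma comparisons tumour state, line of origin and culture history cannot be told apart. Osteoblast and pre-osteoblast cultures also differed in medium, culture time and growth, and these cannot be told apart from differentiation. The spread of the osteosarcoma group is that between lines, and the spread of the other groups is that between cultures of 1 line.

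Collagen chains fold in the endoplasmic reticulum into triple helices, after hydroxylation of their prolines and lysines, are secreted, and are trimmed and cross-linked outside the cell. Type I collagen, made of the products of Col1a1 and Col1a2, is the main protein of bone matrix, and osteoblasts depend on ascorbate for the hydroxylation of its chains. Type III and type V chains accompany type I in fibrils, type II and type XI chains are known from cartilage, type IV chains form the sheets of basement membranes, type VI chains form beaded filaments around cells, and type X collagen is made by hypertrophic chondrocytes of the growth plate.

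Values are log2 expression levels per gene as the authors normalized them with the RMA method, so a difference of 1 means a 2-fold change relative to the other genes of an array. Differences between groups were tested with limma over all 19938 genes, and a gene is called changed where its p-value adjusted by the Benjamini-Hochberg method was below 0.05. Levels of different genes are not compared, because they come from different probes. Of the 44 genes, 30 had a mean over all arrays above 7.97, the median of all genes. Arrays of a group correlated over all genes at 0.982 or more, and arrays of different groups at 0.95 to 0.97. Within a group, values are listed by line (493H, 494H, 716H) or by culture number. The 6 osteoblast markers measured averaged 7.63 to 8.41 in the lines, 11.20 to 11.93 in osteoblasts and 7.22 to 7.84 in pre-osteoblasts, and all 6 rose in osteoblasts over pre-osteoblasts. In lines over osteoblasts 4 of the 6 fell, and in lines over pre-osteoblasts 1 rose and 0 fell. The lines differed from each other by at least 1 log2 in 4 of these markers. The 8 adipocyte markers averaged 7.64 to 8.18 in the lines, 11.10 to 11.86 in osteoblasts and 8.27 to 8.81 in pre-osteoblasts. Of these, 6 rose in osteoblasts over pre-osteoblasts and all 8 fell in lines over osteoblasts. The 9 markers of dividing cells averaged 11.41 to 11.83 in the lines, 8.70 to 9.90 in osteoblasts and 10.96 to 11.82 in pre-osteoblasts. All 9 fell in osteoblasts over pre-osteoblasts and rose in lines over osteoblasts. The part of the adipocyte, dividing-cell and osteoblast marker differences in any collagen result was not tested, and in such bulk samples fewer cells of a type and less RNA per cell cannot be told apart. Markers of haematopoietic and epithelial cells averaged at most 7.2 on any array, and the endothelial genes Pecam1, Cdh5 and Kdr stood between 6.14 and 6.66, while Tek, the other endothelial marker, reached 9.02 in line 493H.

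Differentiated osteoblasts held a higher level of 10 collagen chain genes and a lower level of 6 than pre-osteoblasts, at 22.7% and 13.6% of the 44 genes, against 10.3% and 15.8% of all genes measured. Genes above the median level were called more often. With only those 9969 genes tested, 7 of 30 members rose and 4 fell, where 1700 and 2902 of the 9969 did. Col8a1 (11.9-fold) and Col15a1 (3.16-fold) were the only members called with a rise of at least 2-fold, and 0 were called with as large a fall, against 2.51% and 3.72% of all genes. The osteoblast arrays lay entirely above the pre-osteoblast arrays in 16 members and entirely below in 8, against 19.1% and 25.1% of all genes. In osteosarcoma lines over pre-osteoblasts, 3 members rose and 10 fell, where 9.96% and 13.5% of all genes did, and 1 rose and 5 fell by at least 2-fold, against 2.17% and 2.41%. The lines lay entirely above pre-osteoblasts in 7 members and entirely below in 14, against 15.4% and 20.2% of all genes. In osteosarcoma lines over osteoblasts, 2 rose and 9 fell, where 14.7% and 12.7% of all genes did, and 1 rose and 4 fell by at least 2-fold, against 4.16% and 2.78%. The lines lay entirely above osteoblasts in 2 members and entirely below in 12, against 19.6% and 19.1%. The 3 comparisons share arrays in pairs, so their counts do not bear on each other independently. A test over all 3 groups called 21 of the 44 genes, against 38.4% of all genes. The median change of the members was 0.06 in osteoblasts over pre-osteoblasts, 0.01 in lines over pre-osteoblasts and -0.05 in lines over osteoblasts. The medians over all genes were -0.0037, -0.02 and -0.02. Of the 44 members, 22 were called in none of the 3 comparisons. The plot of differences between groups shows each member in each comparison.

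**Figure D1:**
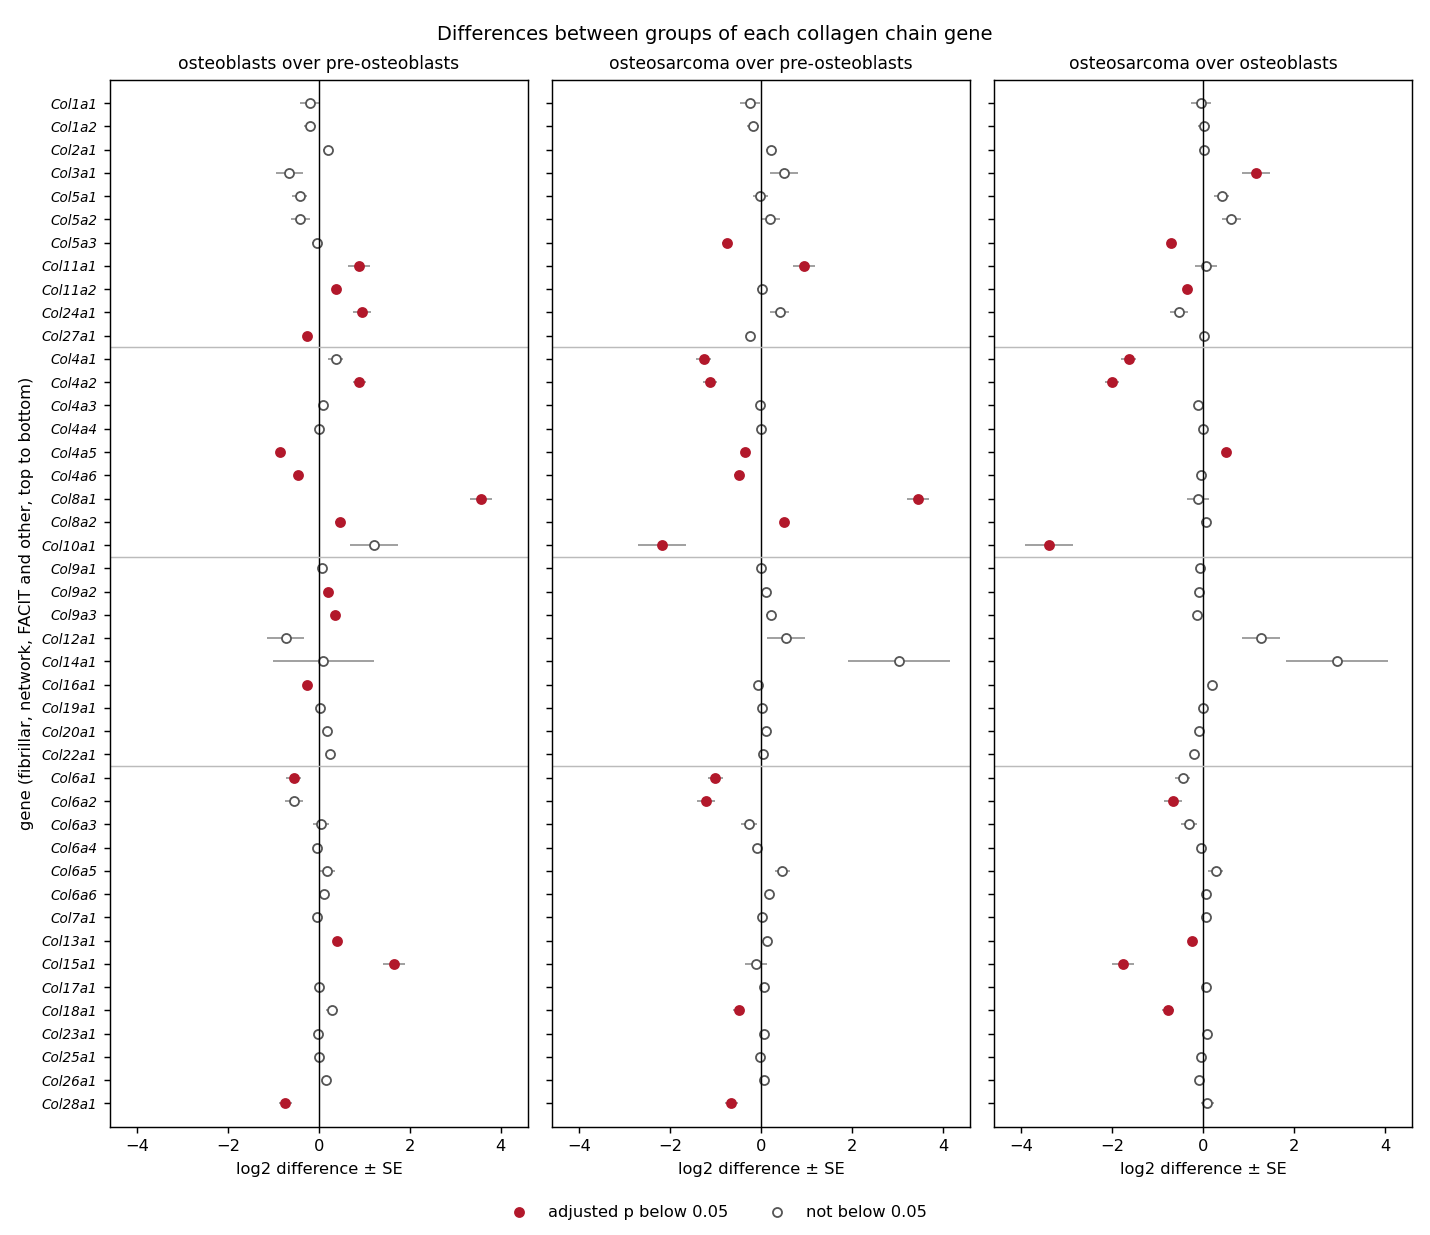
Differences in log2 level between groups for each of the 44 collagen chain genes, with bars of 1 standard error from limma; each panel is 1 comparison and filled red points have an adjusted p below 0.05. The largest changes stand among the network collagens, where Col8a1 lies at 3.57 for osteoblasts over pre-osteoblasts and Col10a1 at -3.40 for osteosarcoma lines over osteoblasts.

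Among the fibrillar collagens, type I chains showed no difference that passed the test. Col1a1 stood at 13.42, 12.81 and 13.53 in the osteosarcoma lines, at 13.22, 13.72 and 12.99 in osteoblasts and at 13.55, 13.41 and 13.55 in pre-osteoblasts. The 3 groups overlap, with line 494H lowest of all arrays and osteoblast culture 2 highest. The difference of osteoblasts over pre-osteoblasts was -0.19 ± 0.22 (SE, adjusted p = 0.609), with a 95% interval of -0.70 to 0.32, and that of the lines over osteoblasts was -0.06 ± 0.22 (adjusted p = 0.89, interval -0.57 to 0.45). Col1a2, the partner chain, stood at 13.24, 13.14 and 13.25 in the lines, 13.10, 13.50 and 12.98 in osteoblasts and 13.48, 13.30 and 13.40 in pre-osteoblasts. All 3 lines lay below all pre-osteoblast cultures, by -0.18 ± 0.12 on average (adjusted p = 0.364). Osteoblasts lay on both sides of the other groups, with a difference from pre-osteoblasts of -0.20 ± 0.12 (adjusted p = 0.312). Without osteoblast culture 2 this difference was -0.35 and passed the test (adjusted p = 0.0156). None of these intervals reached 1 log2 in either direction, and a p that missed the threshold does not show equal levels. Col2a1, the cartilage fibril chain, stood at 9.02, 8.82 and 8.94 in the lines, 8.86, 9.11 and 8.78 in osteoblasts and 8.65, 8.67 and 8.84 in pre-osteoblasts. Its groups overlap and it passed no test (adjusted p 0.19 to 0.958).

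Col3a1, the chain of type III collagen of soft connective tissue, was 2.22-fold higher in the osteosarcoma lines than in osteoblasts. It stood at 11.77, 10.96 and 11.61 in the lines, 9.91, 10.95 and 10.01 in osteoblasts and 11.12, 10.70 and 11.01 in pre-osteoblasts. The lines all lay above the osteoblasts, although line 494H at 10.96 and osteoblast culture 2 at 10.95 almost met. The difference was 1.15 ± 0.31 (adjusted p = 0.0237) and did not pass the test without line 493H (0.99, adjusted p = 0.0784), line 716H (1.07, 0.0635), osteoblast culture 1 (0.96, 0.0887) or culture 3 (1.01, 0.0867), or with only these groups in the fit (0.0645). Osteoblasts over pre-osteoblasts differed by -0.65 ± 0.31 (adjusted p = 0.169), and by -0.98 without osteoblast culture 2 (adjusted p = 0.0249). Col5a1 and Col5a2, chains of the type V collagen that nucleates type I fibrils, passed no test with all arrays and all genes. Col5a2 stood at 11.26, 11.67 and 11.36 in the lines, 10.56, 11.33 and 10.56 in osteoblasts and 11.35, 11.11 and 11.21 in pre-osteoblasts. Osteoblast culture 2 lay among the lines and pre-osteoblasts, and the other osteoblast cultures lay below both. Without osteoblast culture 2, osteoblasts were lower than pre-osteoblasts in Col5a1 by -0.59 (adjusted p = 0.0189) and in Col5a2 by -0.67 (adjusted p = 0.01), and the lines were higher than osteoblasts by 0.57 (0.0204) and 0.87 (0.00321). Among genes above the median level, Col5a2 passed for lines over osteoblasts with all arrays (0.0394). Col5a3, the remaining type V chain, fell in the lines relative to both Kusa4b10 groups. It stood at 8.08, 7.92 and 8.27 in the lines, 8.82, 8.79 and 8.78 in osteoblasts and 9.0, 8.70 and 8.84 in pre-osteoblasts. All lines lay below all cultures, by -0.70 ± 0.10 against osteoblasts (adjusted p = 0.00151) and -0.76 ± 0.10 against pre-osteoblasts (adjusted p = 0.00137).

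The minor fibrillar chains Col11a1, Col11a2 and Col24a1 rose in osteoblasts over pre-osteoblasts, and Col27a1 fell. Type XI chains control fibril width in cartilage, and type XXIV collagen is known from developing bone. Col24a1 stood at 7.63, 7.59 and 7.94 in the lines, 8.07, 8.76 and 7.96 in osteoblasts and 7.32, 7.23 and 7.41 in pre-osteoblasts. The groups lie apart, osteoblasts highest and pre-osteoblasts lowest, and osteoblasts over pre-osteoblasts differed by 0.95 ± 0.20 (adjusted p = 0.00922). The lines stood between, at 0.41 ± 0.20 over pre-osteoblasts (adjusted p = 0.199) and -0.54 ± 0.20 over osteoblasts (adjusted p = 0.082), a difference that passed with quantile normalization (0.0476) or centring (0.0488). Col11a1 stood at 8.69, 8.92 and 9.42 in the lines, 8.69, 9.46 and 8.69 in osteoblasts and 7.99, 8.00 and 8.19 in pre-osteoblasts. Lines and osteoblasts overlap and both lie above pre-osteoblasts, by 0.95 ± 0.24 (adjusted p = 0.0245) and 0.88 ± 0.24 (adjusted p = 0.0292). The rise in osteoblasts did not pass the test without osteoblast culture 2 (adjusted p = 0.0621) or without any of pre-osteoblast cultures 1, 2 and 3 (0.085, 0.0874 and 0.0602). The rise in the lines did not pass it without line 716H (0.06) or without any of the pre-osteoblast cultures (0.077, 0.0731 and 0.0545). Col11a2 was higher in osteoblasts than in the lines or pre-osteoblasts, and the lines differed from osteoblasts by -0.36 ± 0.09 (adjusted p = 0.0214), which was lost without line 493H (0.0646) or 494H (0.0559) or with only these groups in the fit (0.0632). Osteoblasts exceeded pre-osteoblasts in Col11a2 by 0.37 ± 0.09 (adjusted p = 0.0197), which was lost without pre-osteoblast culture 1 (0.0589) or 2 (0.0622). Col27a1 fell in osteoblasts by 0.26 ± 0.08 on the log2 scale (adjusted p = 0.0389), and leaving out line 493H (0.0529), osteoblast culture 1 (0.117), 2 (0.0502) or 3 (0.12), or pre-osteoblast culture 1 (0.087) or 3 (0.129) ended that call. So did quantile normalization, where the value was -0.15 (adjusted p = 0.303), arrays centred on their medians (0.0584) and the intensity trend (0.0585). Lines over pre-osteoblasts passed the test in Col24a1 without osteoblast culture 2 (0.41, adjusted p = 0.0307) and in Col27a1 without line 716H (-0.29, adjusted p = 0.0383) or with centring (-0.26, 0.0443).

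**Figure D2:**
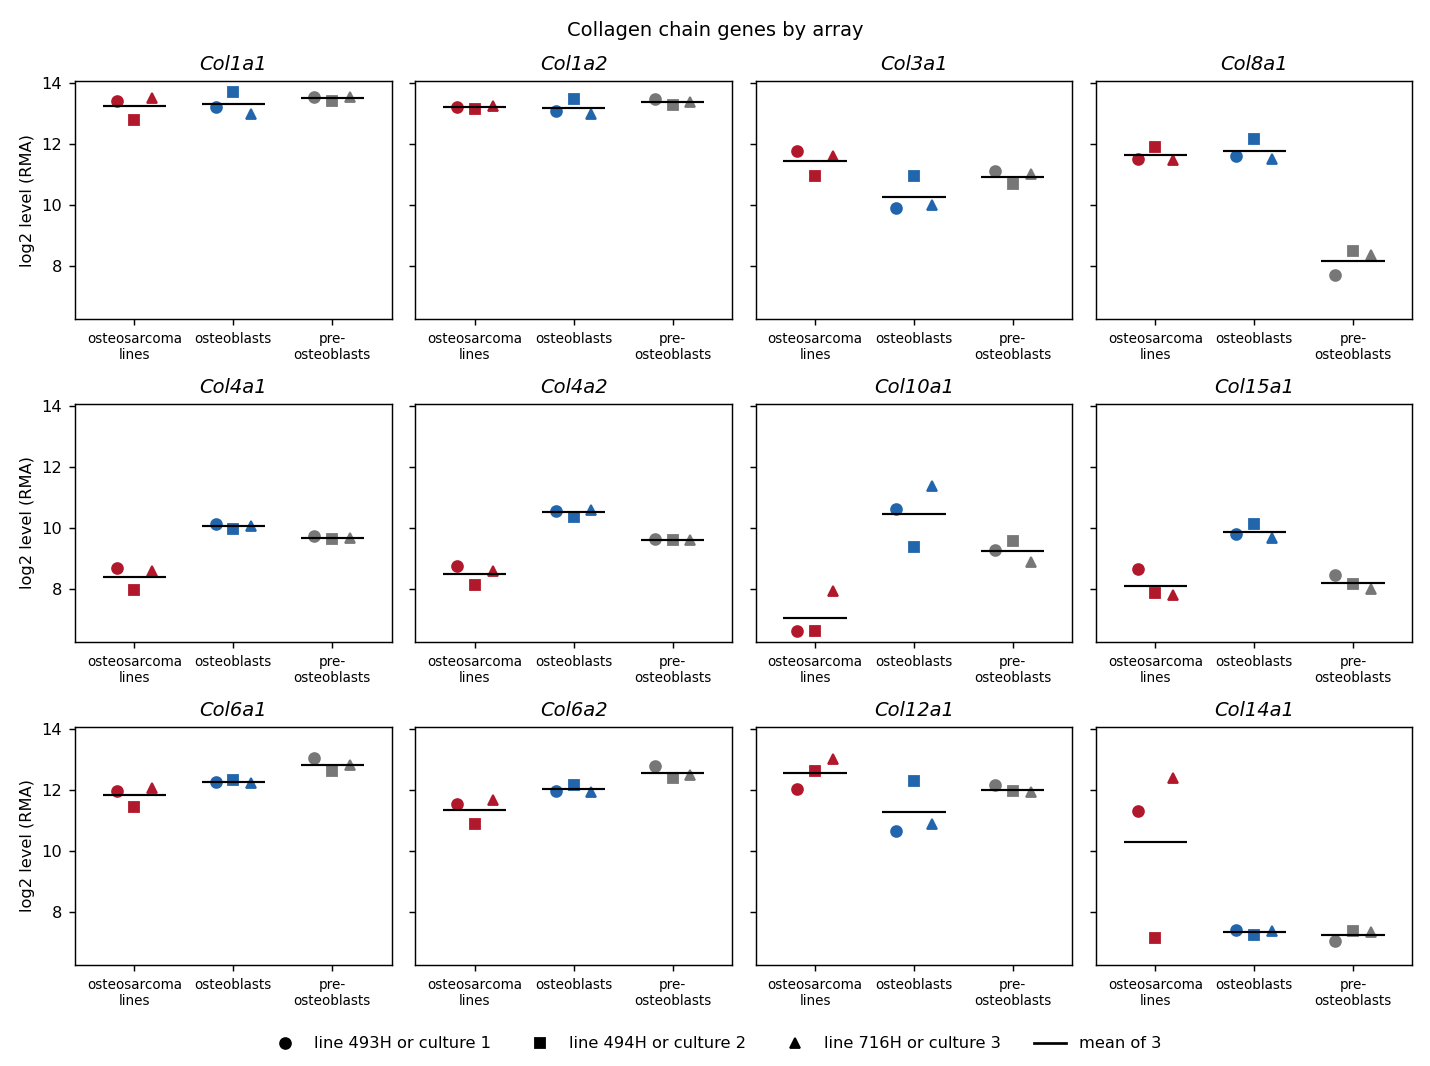
Log2 expression level (RMA) on each of the 9 arrays for 12 collagen chain genes, with a line at the mean of each group of 3; levels are to be read within a panel, not between genes. Col8a1 separates pre-osteoblasts (7.73 to 8.50) from the other groups (11.50 to 12.17), Col4a1 and Col4a2 separate the lines from both kinds of culture, and Col14a1 separates line 494H (7.17) from lines 493H and 716H (11.32 and 12.39).

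Among the network-forming collagens, the chains of the common basement membrane collagen, Col4a1 and Col4a2, were lower in the osteosarcoma lines than in either kind of Kusa4b10 culture. The products of these genes join in a heterotrimer. The genes lie head to head, and their RefSeq promoter windows (GRCm38.p6, from 250 bases before to 50 bases after the annotated start) share 78 bases, with starts 21 bases apart. The windows are shown because both genes fell in both osteosarcoma comparisons. Col4a1 is read on the minus strand at chr8:11312777-11313076 and Col4a2 on the plus strand at chr8:11312555-11312854. Capitals mark the motif CCAAT, searched on both strands, so that it appears as ATTGG where it lies on the opposite strand.
Col4a1: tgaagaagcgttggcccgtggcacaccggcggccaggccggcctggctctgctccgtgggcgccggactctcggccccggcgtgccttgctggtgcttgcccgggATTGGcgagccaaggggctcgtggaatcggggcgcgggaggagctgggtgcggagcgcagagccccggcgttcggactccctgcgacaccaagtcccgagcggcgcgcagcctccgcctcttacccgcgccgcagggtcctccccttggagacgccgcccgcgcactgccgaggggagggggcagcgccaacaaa
Col4a2: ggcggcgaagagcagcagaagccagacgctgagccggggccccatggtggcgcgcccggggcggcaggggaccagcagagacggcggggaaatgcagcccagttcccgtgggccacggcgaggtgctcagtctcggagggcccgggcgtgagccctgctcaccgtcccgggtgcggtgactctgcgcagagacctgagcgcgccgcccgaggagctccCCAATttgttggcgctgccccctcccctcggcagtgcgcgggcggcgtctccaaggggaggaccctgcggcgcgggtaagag
Each window holds 1 CCAAT. Another motif searched, TATAAA, is in neither. Of these motifs the CCAAT one was found in 34.2% of the 38 collagen windows (35 of the 44 genes had a window) and in 37.4% of 32851 windows of all genes, and the other in 13.2% and 13.6%. A match describes these letters only. The median GC content was 59.8% in collagen windows and 52.7% in all windows.

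Col4a1 stood at 8.69, 7.98 and 8.60 in the osteosarcoma lines, 10.13, 9.97 and 10.09 in osteoblasts and 9.74, 9.65 and 9.68 in pre-osteoblasts. The 3 groups do not overlap, with the lines lowest and line 494H lowest among them. The lines differed from osteoblasts by -1.64 ± 0.17 (3.11-fold lower, adjusted p = 0.000315) and from pre-osteoblasts by -1.27 ± 0.17 (2.41-fold lower, adjusted p = 0.00124). Col4a2 stood at 8.77, 8.14 and 8.61 in the lines, 10.58, 10.36 and 10.61 in osteoblasts and 9.67, 9.63 and 9.60 in pre-osteoblasts. Its groups fall in the same order and do not overlap either. The lines differed from osteoblasts by -2.01 ± 0.15 (4.04-fold lower, adjusted p = 8.68e-05) and from pre-osteoblasts by -1.12 ± 0.15 (2.18-fold lower, adjusted p = 0.00125). Osteoblasts exceeded pre-osteoblasts in Col4a2 by 0.89 ± 0.15 (adjusted p = 0.00311). In Col4a1 they exceeded them by 0.37 ± 0.17 (adjusted p = 0.153), which passed the test without line 494H (adjusted p = 0.00387), with array weights (0.0439) or with only these groups in the fit (0.00536). The falls in the lines held without any single array.

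Col4a5 and Col4a6, chains of basement membranes of kidney, eye and smooth muscle, lie head to head on the X chromosome with starts 1343 bases apart, and their windows share 0 bases. They are shown because, like Col4a1 and Col4a2, they are a head-to-head pair, with the same calls in both comparisons with pre-osteoblasts and different calls in lines over osteoblasts. Col4a5 is on the plus strand at chrX:141475169-141475468 and Col4a6 on the minus strand at chrX:141474027-141474326, and capitals mark CCAAT.
Col4a5: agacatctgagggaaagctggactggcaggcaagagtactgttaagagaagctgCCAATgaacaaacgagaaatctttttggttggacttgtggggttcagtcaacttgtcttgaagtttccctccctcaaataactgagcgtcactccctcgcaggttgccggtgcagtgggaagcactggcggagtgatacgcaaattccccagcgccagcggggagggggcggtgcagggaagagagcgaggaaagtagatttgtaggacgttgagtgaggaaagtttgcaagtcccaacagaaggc
Col4a6: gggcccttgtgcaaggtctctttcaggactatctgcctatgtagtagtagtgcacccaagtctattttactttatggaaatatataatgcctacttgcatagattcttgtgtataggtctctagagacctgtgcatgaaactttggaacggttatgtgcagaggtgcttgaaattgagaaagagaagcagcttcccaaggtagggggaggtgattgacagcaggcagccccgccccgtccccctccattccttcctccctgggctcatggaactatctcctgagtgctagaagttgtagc
Col4a5 stood at 8.49, 8.55 and 8.43 in the lines, 8.01, 8.05 and 7.93 in osteoblasts and 8.97, 8.69 and 8.89 in pre-osteoblasts. The groups do not overlap, and osteoblasts are lowest, whereas they are highest in Col4a2. Osteoblasts lay below pre-osteoblasts by -0.85 ± 0.08 (adjusted p = 0.00022), the lines below pre-osteoblasts by -0.36 ± 0.08 (adjusted p = 0.0128) and the lines above osteoblasts by 0.49 ± 0.08 (adjusted p = 0.00259). Col4a6 stood at 7.04, 7.01 and 7.37 in the lines, 7.15, 7.30 and 7.08 in osteoblasts and 7.62, 7.58 and 7.69 in pre-osteoblasts. All these values lie below 7.97, the median of all genes. Lines and osteoblasts overlap (difference -0.04, adjusted p = 0.829), and both lie below pre-osteoblasts, by -0.49 ± 0.10 (adjusted p = 0.0108) and -0.45 ± 0.10 (adjusted p = 0.0137). The fall in osteoblasts was lost without osteoblast culture 1 (0.0507) or 3 (0.0556) or pre-osteoblast culture 3 (0.0519). Col4a3 (7.20 to 7.45 over all arrays) and Col4a4 (7.36 to 7.58), chains of the glomerular basement membrane, passed no test.

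Col8a1 showed the largest difference of any collagen chain gene, and it set pre-osteoblasts apart from the other groups. It encodes a chain of type VIII collagen, a short-chain network collagen known from the corneal endothelium and from vessel walls. Its window at chr16:57754688-57754987 on the minus strand, shown as the region at the start of the gene with the largest change, holds neither motif searched and so has no capitals.
Col8a1: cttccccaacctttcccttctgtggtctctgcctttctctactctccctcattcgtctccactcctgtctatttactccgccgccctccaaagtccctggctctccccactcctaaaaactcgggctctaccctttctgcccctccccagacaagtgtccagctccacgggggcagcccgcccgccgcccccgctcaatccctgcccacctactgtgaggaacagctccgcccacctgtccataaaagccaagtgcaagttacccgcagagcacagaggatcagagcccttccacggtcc
Col8a1 stood at 11.54, 11.92 and 11.50 in the osteosarcoma lines, 11.62, 12.17 and 11.51 in osteoblasts and 7.73, 8.50 and 8.36 in pre-osteoblasts. Lines and osteoblasts overlap, and the lowest of their arrays lies at 11.50, against 8.50 for the highest pre-osteoblast culture. Osteoblasts exceeded pre-osteoblasts by 3.57 ± 0.24 (11.9-fold, adjusted p = 5.21e-05) and the lines exceeded pre-osteoblasts by 3.46 ± 0.24 (11-fold, adjusted p = 8.87e-05). The lines differed from osteoblasts by -0.12 ± 0.24 (adjusted p = 0.783), with a 95% interval of -0.67 to 0.44. Markers of smooth muscle and myofibroblasts, vessel wall cells among them, averaged 10.88 to 11.44 in the lines, 8.90 to 9.61 in osteoblasts and 10.05 to 10.26 in pre-osteoblasts. The part of these markers in the Col8a1 values was not tested. Col8a2, which encodes the partner chain, stood below 7.97, the median of all genes, on every array. It was 7.65 to 7.89 in the lines, 7.65 to 7.92 in osteoblasts and 7.24 to 7.37 in pre-osteoblasts. It exceeded pre-osteoblasts in the lines by 0.50 ± 0.09 (adjusted p = 0.00587) and in osteoblasts by 0.45 ± 0.09 (adjusted p = 0.00817).

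Col10a1 was lower in the osteosarcoma lines than in both kinds of culture. It encodes the single chain of type X collagen. Its window on the plus strand at chr10:34389731-34390030, shown because it is 1 of 5 collagen windows with a TATAAA (in capitals), reads as follows.
Col10a1: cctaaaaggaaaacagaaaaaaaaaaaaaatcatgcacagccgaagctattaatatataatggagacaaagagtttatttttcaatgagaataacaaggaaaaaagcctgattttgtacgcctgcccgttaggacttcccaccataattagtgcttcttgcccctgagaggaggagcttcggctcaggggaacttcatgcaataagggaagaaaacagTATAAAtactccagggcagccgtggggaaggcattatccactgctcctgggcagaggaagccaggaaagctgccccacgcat
Col10a1 stood at 6.65, 6.63 and 7.95 in the lines, 10.65, 9.38 and 11.40 in osteoblasts and 9.29, 9.58 and 8.91 in pre-osteoblasts. Every line lies below every culture, line 716H least so, while osteoblast culture 2 lies within the pre-osteoblast range and the other osteoblast cultures lie above it. The lines differed from osteoblasts by -3.40 ± 0.53 (10.6-fold lower, adjusted p = 0.00213) and from pre-osteoblasts by -2.19 ± 0.53 (4.55-fold lower, adjusted p = 0.0194). The difference from pre-osteoblasts did not pass the test without line 493H (-1.97, adjusted p = 0.0634), line 494H (-1.96, 0.0519), pre-osteoblast culture 1 (-2.17, 0.06) or culture 2 (-2.02, 0.0667). Osteoblasts exceeded pre-osteoblasts by 1.21 ± 0.53 (adjusted p = 0.143), and by 1.76 without osteoblast culture 2 (adjusted p = 0.0275). The 9 chondrocyte markers averaged 7.13 to 7.43 in the lines, 7.05 to 7.10 in osteoblasts and 7.04 to 7.07 in pre-osteoblasts. The average holds markers that differ: 1 rose and 1 fell in lines over pre-osteoblasts, 0 rose and 1 fell in lines over osteoblasts, and 0 were called in osteoblasts over pre-osteoblasts. Sox9, a regulator of cartilage genes, rose in the lines over pre-osteoblasts by 0.86 ± 0.23 (adjusted p = 0.0293). Sox5, its partner, fell in the lines by 0.84 ± 0.12 against pre-osteoblasts (adjusted p = 0.00193) and by 0.55 ± 0.12 against osteoblasts (adjusted p = 0.0105). Comp reached 9.44 in line 716H and Hapln1 7.67 in line 494H, while Acan stood at 6.33 to 6.47 on all arrays. The part of these markers in the Col10a1 values was not tested.

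The fibril-associated collagens, which sit on the surface of fibrils, held 3 calls among 9 genes in osteoblasts over pre-osteoblasts, 2 higher and 1 lower, where 10.3% and 15.8% of all genes were called. They held 0 calls in lines over pre-osteoblasts (9.96% and 13.5% of all genes) and 0 in lines over osteoblasts (14.7% and 12.7%). Col9a2 and Col9a3, chains of the type IX collagen of cartilage fibrils, rose by 0.21 ± 0.05 (adjusted p = 0.0137) and 0.35 ± 0.10 (adjusted p = 0.0287). Col16a1, a chain found in many connective tissues, fell by 0.27 ± 0.08 on the log2 scale (adjusted p = 0.0421). None of the 3 calls held without osteoblast culture 1, where the adjusted p was 0.0533, 0.0958 and 0.142. Col9a3 was also lost without osteoblast culture 2 (0.0903) or pre-osteoblast culture 1, 2 or 3 (0.0857, 0.0602 and 0.0808). Col16a1 was also lost without line 493H (0.0595) or 716H (0.0522), osteoblast culture 3 (0.141) or pre-osteoblast culture 1, 2 or 3 (0.12, 0.0808 and 0.0981). Its value was -0.16 with quantile normalization (adjusted p = 0.159), and the call was also lost with the intensity trend (0.0583) or only these groups in the fit (0.064). Col9a1, Col19a1, Col20a1 and Col22a1 were not called, and ranged over all arrays from 6.76 (Col19a1) to 8.34 (Col22a1). Leaving out osteoblast culture 3 gave Col22a1 a difference of 0.32 for osteoblasts over pre-osteoblasts (adjusted p = 0.0192) and -0.29 for lines over osteoblasts (adjusted p = 0.026). Leaving out line 716H gave Col20a1 0.19 for osteoblasts over pre-osteoblasts (adjusted p = 0.0411). With all arrays, Col22a1 passed the test for osteoblasts over pre-osteoblasts with quantile normalization (0.0256), arrays centred on their medians (0.0356) or 1 array weight per group (0.0403), and for lines over osteoblasts with quantile normalization (0.0363) or centring (0.0439). Col20a1 passed for osteoblasts over pre-osteoblasts with array weights (0.0338) or only these groups in the fit (0.0349). Without osteoblast culture 2, Col16a1 was higher in the lines than in osteoblasts by 0.29 (adjusted p = 0.00877).

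The lines differed most from each other in Col14a1, the chain of type XIV collagen, which limits fibril diameter in tendon and skin. It stood at 11.32, 7.17 and 12.39 in the lines, 7.41, 7.25 and 7.40 in osteoblasts and 7.06, 7.37 and 7.34 in pre-osteoblasts. Lines 493H and 716H lie far above all cultures, and line 494H lies among them. Relative to the pre-osteoblast mean, Col14a1 was 16.6-fold higher in line 493H, 34.9-fold higher in line 716H and -0.09 apart on the log2 scale in line 494H. Over all lines the difference from pre-osteoblasts was 3.03 ± 1.12 (adjusted p = 0.0903) and that from osteoblasts 2.94 ± 1.12 (adjusted p = 0.0895). Without line 494H they came to 4.59 (7.3e-05) and 4.50 (6.97e-05), values that rest on a line left out after its level was known. The 3 tendon markers averaged 8.74, 8.34 and 7.83 in the lines, against 7.32 to 7.65 in osteoblasts and 7.37 to 7.53 in pre-osteoblasts. Of these markers, Tnmd was lowest in line 716H (6.73) and highest in 493H (10.18), Scx lowest in 493H (7.77) and highest in 494H (9.07), and Mkx lowest in 494H (7.76) and highest in 493H (8.26). Their part in the Col14a1 values was not tested. Col12a1, the chain of the related type XII collagen of dense connective tissue, stood at 12.03, 12.61 and 13.02 in the lines, 10.66, 12.30 and 10.89 in osteoblasts and 12.16, 11.96 and 11.93 in pre-osteoblasts. Osteoblast cultures 1 and 3 lie below all other arrays, and culture 2 lies among the lines. The lines exceeded osteoblasts by 1.27 ± 0.41 (adjusted p = 0.0534), by 1.53 without line 493H (adjusted p = 0.045) and by 1.78 without osteoblast culture 2 (adjusted p = 0.00277). With all arrays it passed the test among genes above the median level (0.03) or the lower quartile (0.0419), with arrays centred on their medians (0.0496) and with the intensity trend (0.0483). Osteoblasts differed from pre-osteoblasts in Col12a1 by -0.74 ± 0.41 (adjusted p = 0.256), and by -1.24 without osteoblast culture 2 (adjusted p = 0.0129).

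Among the other collagens, Col15a1 was higher in osteoblasts than in either other group. Types XV and XVIII form the multiplexins, proteoglycan collagens of the basement membrane zone whose C-terminal fragments include endostatin for type XVIII. The window of Col15a1 on the plus strand at chr4:47207762-47208061 is shown as the start of the member with the next largest rise after Col8a1 in osteoblasts, and it holds neither motif.
Col15a1: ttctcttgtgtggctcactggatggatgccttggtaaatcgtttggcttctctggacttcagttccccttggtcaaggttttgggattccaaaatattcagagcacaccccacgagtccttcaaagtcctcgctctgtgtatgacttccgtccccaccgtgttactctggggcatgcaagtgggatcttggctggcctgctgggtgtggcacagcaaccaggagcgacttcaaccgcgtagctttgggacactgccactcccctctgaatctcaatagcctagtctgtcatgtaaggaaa
Col15a1 stood at 8.68, 7.87 and 7.81 in the osteosarcoma lines, 9.81, 10.15 and 9.68 in osteoblasts and 8.48, 8.19 and 8.01 in pre-osteoblasts. Every osteoblast culture lies above every other array, and lines and pre-osteoblasts overlap. Osteoblasts exceeded pre-osteoblasts by 1.66 ± 0.24 (3.16-fold, adjusted p = 0.00166), and the lines lay below osteoblasts by -1.76 ± 0.24 (3.4-fold, adjusted p = 0.00115). Lines over pre-osteoblasts differed by -0.11 ± 0.24 (adjusted p = 0.818). Col18a1 stood at 8.16, 7.70 and 8.17 in the lines, 8.78, 8.75 and 8.83 in osteoblasts and 8.64, 8.38 and 8.50 in pre-osteoblasts. The groups do not overlap, and the lines are lowest. The lines lay below osteoblasts by -0.78 ± 0.13 (adjusted p = 0.00283) and below pre-osteoblasts by -0.50 ± 0.13 (adjusted p = 0.0259), and this last difference was lost without pre-osteoblast culture 1 (0.0901) or 3 (0.0726) or with only these groups in the fit (0.0766). Osteoblasts over pre-osteoblasts differed by 0.28 ± 0.13 (adjusted p = 0.159), which passed the test without line 494H (adjusted p = 0.0248) or with only these groups in the fit (0.034).

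Of the type VI chains, Col6a1 and Col6a2, which lie next to each other on chromosome 10, were lower in the lines than in pre-osteoblasts. Col6a1 stood at 11.99, 11.44 and 12.06 in the lines, 12.27, 12.34 and 12.23 in osteoblasts and 13.04, 12.64 and 12.83 in pre-osteoblasts. Col6a2 stood at 11.54, 10.89 and 11.67 in the lines, 11.99, 12.17 and 11.93 in osteoblasts and 12.80, 12.41 and 12.50 in pre-osteoblasts. In both genes the groups lie apart, lines lowest and pre-osteoblasts highest, and line 494H is the lowest array. Lines over pre-osteoblasts differed by -1.01 ± 0.17 in Col6a1 (2.01-fold lower, adjusted p = 0.00346) and by -1.20 ± 0.20 in Col6a2 (2.3-fold lower, adjusted p = 0.00346). The lines lay below osteoblasts in Col6a2 by -0.66 ± 0.20 (adjusted p = 0.0396) and in Col6a1 by -0.45 ± 0.17 (adjusted p = 0.0811). The Col6a2 call was lost without line 493H (0.0516), osteoblast culture 1, 2 or 3 (0.0934, 0.117 and 0.0782) or pre-osteoblast culture 2 or 3 (0.055 and 0.0637), and with only these groups in the fit (0.0814), while Col6a1 passed without line 716H (-0.57, 0.0452) and with centring (-0.49, 0.0437). Osteoblasts lay below pre-osteoblasts in Col6a1 by -0.55 ± 0.17 (adjusted p = 0.0403), which was lost without osteoblast culture 1, 2 or 3 (0.107, 0.0783 and 0.117) or pre-osteoblast culture 1 or 3 (0.13 and 0.0978) or with quantile normalization (0.0807). In Col6a2 osteoblasts differed from pre-osteoblasts by -0.54 ± 0.20 (adjusted p = 0.0833), and this passed without line 494H (0.00922), with array weights (0.0259) or with only these groups in the fit (0.0144). Col6a3, the long chain that joins both in the type VI trimer, stood at 11.52, 11.87 and 11.93 in the lines, 11.93, 12.49 and 11.85 in osteoblasts and 12.11, 11.97 and 12.06 in pre-osteoblasts. The lines lie just below pre-osteoblasts, by -0.27 ± 0.18 (adjusted p = 0.327), and overlap with osteoblasts. Whether Col6a3 differed from Col6a1 and Col6a2 in its change was not tested.

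Col6a5, a further type VI chain, had 2 probe sets that differ. The brighter one, used in the tests, read 7.92, 7.24 and 7.76 in the lines, 7.25, 7.53 and 7.30 in osteoblasts and 7.08, 7.22 and 7.23 in pre-osteoblasts, and passed no test. The dimmer one read 7.65, 6.20 and 7.21 in the lines, 6.04, 6.19 and 6.18 in osteoblasts and 6.01, 6.20 and 6.11 in pre-osteoblasts. On both, lines 493H and 716H lie above every culture and line 494H lies near the cultures. Without line 494H the brighter probe set was 0.66 higher in the lines than in pre-osteoblasts (adjusted p = 0.00338) and 0.48 higher than in osteoblasts (adjusted p = 0.0113). As with Col14a1, these values rest on a line left out after its level was known. Over all lines the adjusted p was 0.0803 and 0.271. Col13a1, a transmembrane collagen of cell contacts, rose in osteoblasts over pre-osteoblasts by 0.39 ± 0.08 (adjusted p = 0.00579). It was lower in the lines than in osteoblasts by -0.26 ± 0.08 (adjusted p = 0.0369), which was lost without line 493H or 494H (0.081 and 0.0956), osteoblast culture 1 or 2 (0.119 and 0.106) or pre-osteoblast culture 1 or 2 (0.0518 and 0.0558), with array weights (0.0512) or with only these groups in the fit (0.0771). Col28a1, a collagen known from peripheral nerve, stood at 7.22, 7.01 and 7.12 in the lines, 7.26, 7.08 and 6.75 in osteoblasts and 7.88, 7.90 and 7.55 in pre-osteoblasts. All these values lie below 7.97, the median of all genes. Lines and osteoblasts overlap, and both lie below pre-osteoblasts, by -0.66 ± 0.14 (adjusted p = 0.0122) and -0.75 ± 0.14 (adjusted p = 0.00599). Col6a4, Col6a6, Col7a1, Col17a1, Col23a1, Col25a1 and Col26a1 passed no test, and ranged over all arrays from 7.22 (Col6a4) to 8.58 (Col26a1).

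**Figure D3:**
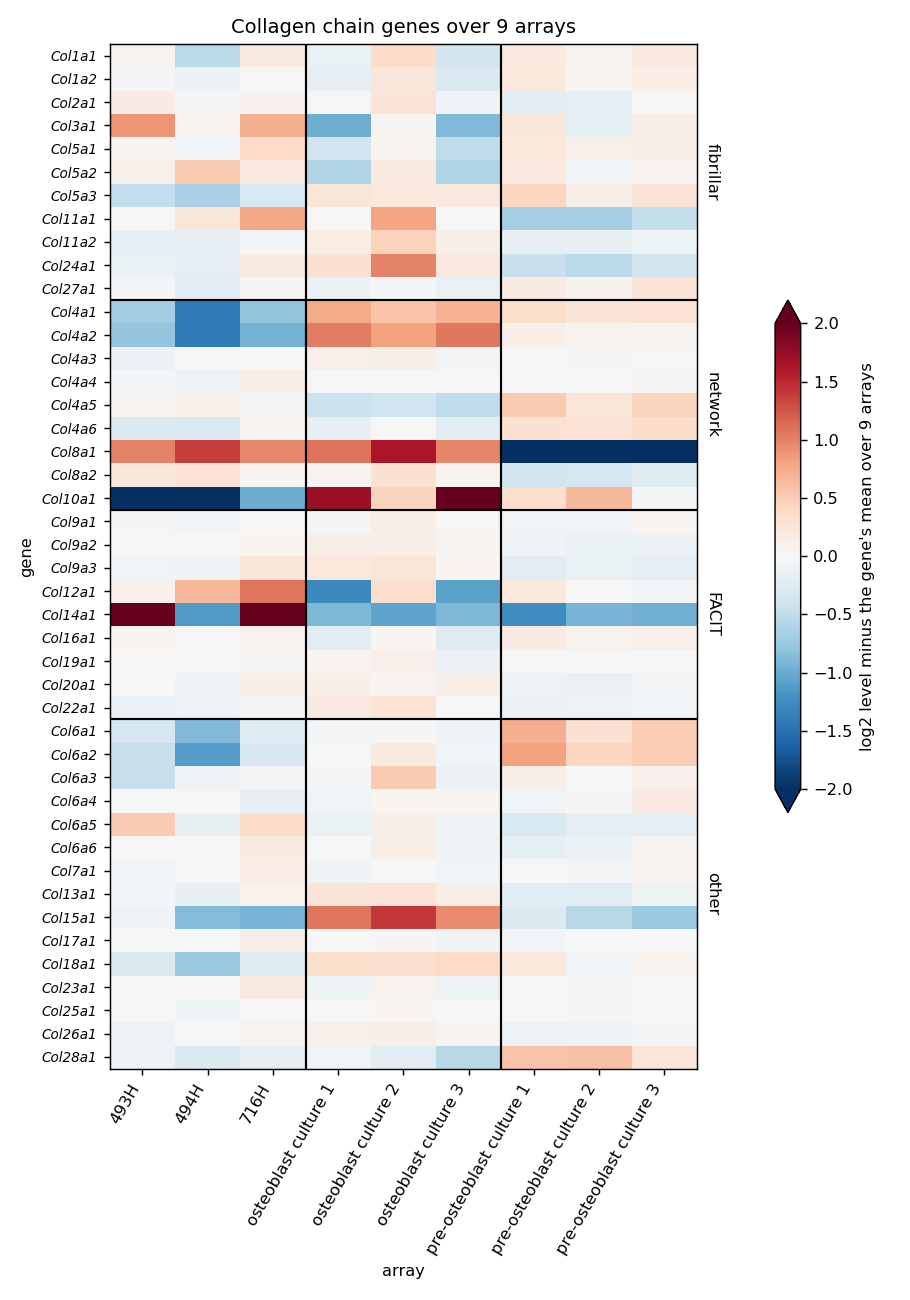
Log2 level of each of the 44 collagen chain genes on each array, minus the gene's mean over the 9 arrays; the colour scale ends at 2 in either direction, and thick lines part the groups of arrays and of collagens. Osteoblast culture 2 is the highest osteoblast culture in 10 of 11 fibrillar genes, and line 494H is the lowest line in Col14a1, Col4a1, Col4a2, Col6a1 and Col6a2.

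Line by line, few collagen genes left the range of the cultures by 2-fold or more in all lines. Col8a1 lay at least 2-fold above every pre-osteoblast culture in all 3 lines, as 0.993% of all genes did, and 0 members lay as far below, against 0.888%. In all lines 0 members lay at least 2-fold above every osteoblast culture, against 1.95% of all genes. Col10a1, Col15a1, Col4a1 and Col4a2 lay at least 2-fold below every osteoblast culture in all 3 lines, which makes 9.09% of the members, where 1.22% of all genes did. In line 493H, Col14a1 lay at least 2-fold above every osteoblast culture (3.88% of all genes did) and, with Col8a1, as far above every pre-osteoblast culture (2.35%). In line 716H, Col14a1 lay at least 2-fold above every osteoblast culture (3.48%) and, with Col8a1 and Col11a1, as far above every pre-osteoblast culture (2.25%). Line 494H had 0 members at least 2-fold above every osteoblast culture (4.02%) and Col8a1 alone at least 2-fold above every pre-osteoblast culture (2.24%). Line 494H had 6 members at least 2-fold below all osteoblast cultures, Col18a1 and Col6a2 joining the 4 above, where 2.78% of all genes were as low, and lines 493H and 716H had those 4 only, against 2.12% and 2.45%. Line 494H also had 5 at least 2-fold below all pre-osteoblast cultures (Col10a1, Col4a1, Col4a2, Col6a1 and Col6a2), against 2.57% of all genes. Lines 493H and 716H each had 1 such gene, Col10a1 in 493H (1.62% of all genes) and Col4a1 in 716H (2.23%). Within the lines, 494H was the lowest in 27 of 44 members, where it was the lowest in 28.7% of all genes, and 716H was the highest in 31 of 44, against 35.9% of all genes. Line 494H lay at least 0.5 log2 below both other lines in 7 members (Col1a1, Col3a1, Col4a1, Col6a1, Col6a2, Col6a5 and Col14a1), against 3.19% of all genes. Each line had 1 array, so a line cannot be told apart from its culture or array, and line 494H is also the only one from a male.

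Osteoblast culture 2 stood apart from cultures 1 and 3, above them in most collagen genes. It was the highest osteoblast culture in 34 of 44 collagen genes and in 36.1% of all genes. Its median difference from the mean of cultures 1 and 3 was 0.13 over the collagens, 0.50 over the 11 fibrillar genes and 0 over all genes. It lay at least 0.5 log2 above both other cultures in 8 members (Col1a1, Col3a1, Col5a2, Col11a1, Col24a1, Col8a1, Col12a1 and Col6a3), against 2.25% of all genes, and as far below in Col10a1, against 0.953%. The difference was 1.52 in Col12a1, 0.99 in Col3a1 and -1.65 in Col10a1. In the same culture the markers of dividing cells were higher by a median of 1.10, with 9 of 9 higher. Its osteoblast markers were higher by a median of 0.51, its smooth muscle markers higher by 0.54 and its adipocyte markers lower by a median of -0.49. Whether the culture differed in growth or in the mix of its cells was not tested. The range over the 3 cultures of a group reached 1 log2 in 3 members in osteoblasts (Col3a1, Col10a1 and Col12a1) and 0 in pre-osteoblasts, against 1.27% and 0.913% of all genes. Over the lines it reached 1 log2 in 2 members (Col10a1 and Col14a1), against 4.95%.

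Genes that handle collagen chains were set beside the chains, in 4 lists. The first holds enzymes and chaperones of folding, of which 20 of 21 were measured (Fkbp10 was not analysed here). In osteoblasts over pre-osteoblasts 4 rose and 1 fell, where 10.3% and 15.8% of all genes did. In lines over pre-osteoblasts 3 rose and 2 fell (9.96% and 13.5% of all genes), and in lines over osteoblasts 2 rose and 3 fell (14.7% and 12.7%). Plod2, the lysyl hydroxylase of the collagen telopeptides, stood at 12.02, 11.77 and 12.26 in the lines, 12.01, 11.96 and 11.93 in osteoblasts and 10.42, 10.29 and 10.29 in pre-osteoblasts. As with Col8a1, lines and osteoblasts overlap and both lie above pre-osteoblasts, by 1.69 ± 0.11 (3.22-fold, adjusted p = 7.33e-05) and 1.63 ± 0.11 (3.1-fold, adjusted p = 5.66e-05). P4ha1, the main catalytic subunit of prolyl 4-hydroxylase, exceeded pre-osteoblasts by 1.02 ± 0.13 in the lines (adjusted p = 0.000935) and 0.92 ± 0.13 in osteoblasts (adjusted p = 0.00133). P4ha3, another catalytic subunit, was higher in the lines than in either kind of culture. It stood at 11.40, 10.86 and 11.51 in the lines, 9.02, 10.19 and 8.98 in osteoblasts and 9.58, 8.96 and 9.13 in pre-osteoblasts. All lines lie above all cultures, by 1.86 ± 0.34 over osteoblasts (adjusted p = 0.0044) and 2.03 ± 0.34 over pre-osteoblasts (adjusted p = 0.00364). P3h2, a prolyl 3-hydroxylase known for acting on basement membrane collagen, stood at 9.32, 8.98 and 9.90 in the lines, 10.31, 10.44 and 10.61 in osteoblasts and 10.18, 10.29 and 10.06 in pre-osteoblasts. Every line lies below every culture, as in Col4a1 and Col4a2, by -1.05 ± 0.21 against osteoblasts (adjusted p = 0.00598) and -0.78 ± 0.21 against pre-osteoblasts (adjusted p = 0.0277). This last difference was lost without line 493H (0.0784) or pre-osteoblast culture 1, 2 or 3 (0.0768, 0.0868 and 0.0592) or with only these groups in the fit (0.0738).

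In the list of processing and cross-linking enzymes 10 of 12 genes were measured (Adamts2 and Loxl2 were not analysed here). In osteoblasts over pre-osteoblasts 1 rose and 5 fell, where 10.3% and 15.8% of all genes did. In lines over pre-osteoblasts 2 rose and 1 fell (9.96% and 13.5% of all genes), and in lines over osteoblasts 6 rose and 1 fell (14.7% and 12.7%). The lysyl oxidases, which start the cross-linking of collagen, did not move as 1 group in osteoblasts. Lox stood at 13.87, 13.53 and 13.79 in the lines, 12.48, 12.86 and 12.35 in osteoblasts and 13.53, 13.59 and 13.55 in pre-osteoblasts. Osteoblasts lie below all other arrays, by -1.0 ± 0.14 against pre-osteoblasts (adjusted p = 0.00124). Loxl3 fell in osteoblasts by 1.51 ± 0.11 on the log2 scale (adjusted p = 6.9e-05) and Loxl1 by 0.54 ± 0.09 (adjusted p = 0.00366). Loxl4 stood at 10.23, 9.55 and 9.62 in the lines, 11.25, 11.68 and 11.31 in osteoblasts and 9.65, 9.75 and 9.44 in pre-osteoblasts, so that osteoblasts lie above all other arrays. It rose in osteoblasts over pre-osteoblasts by 1.80 ± 0.19 (adjusted p = 0.000404), and the lines lay below osteoblasts by -1.61 ± 0.19 (adjusted p = 0.00061). Pcolce2, an enhancer of the C-propeptide protease, was 8.59 to 10.49 in the lines, 6.45 to 7.21 in osteoblasts and 6.84 to 7.15 in pre-osteoblasts. All lines lie above all cultures, by 2.74 ± 0.44 over osteoblasts (adjusted p = 0.0025) and 2.74 ± 0.44 over pre-osteoblasts (adjusted p = 0.00313). Tll1, a protease of the same kind as Bmp1 that removes C-propeptides, was 7.04 to 8.64 in the lines, 6.09 to 6.40 in osteoblasts and 6.07 to 6.12 in pre-osteoblasts. It too lay above all cultures in every line, by 1.80 ± 0.36 over osteoblasts (adjusted p = 0.00678) and 1.96 ± 0.36 over pre-osteoblasts (adjusted p = 0.00572). Adamts14, an N-propeptide protease, fell in the lines relative to pre-osteoblasts by 1.38 ± 0.14 on the log2 scale (adjusted p = 0.000343). It fell in osteoblasts relative to pre-osteoblasts too (2-fold lower, adjusted p = 0.00126). The lines differed from osteoblasts in Adamts14 by -0.38 ± 0.14 (adjusted p = 0.0751), which passed the test without line 494H (-0.54, adjusted p = 0.00553).

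Of collagen receptors 9 of 10 were measured (Gp6 was not analysed here). In osteoblasts over pre-osteoblasts 5 rose and 1 fell, where 10.3% and 15.8% of all genes did. In lines over pre-osteoblasts 3 rose and 2 fell (9.96% and 13.5% of all genes), and in lines over osteoblasts 0 rose and 2 fell (14.7% and 12.7%). Itga10, an integrin chain that binds collagen in cartilage, stood at 7.39, 8.15 and 7.52 in the lines, 9.47, 10.26 and 9.38 in osteoblasts and 7.20, 7.28 and 7.31 in pre-osteoblasts. Osteoblasts lie above all other arrays, by 2.44 ± 0.26 over pre-osteoblasts (5.43-fold, adjusted p = 0.0004). Itga11, an integrin chain for fibrillar collagen on mesenchymal cells, was 9.66 to 11.99 in the lines, 10.30 to 10.96 in osteoblasts and 8.02 to 8.70 in pre-osteoblasts. Lines and osteoblasts overlap and lie above pre-osteoblasts, by 2.31 ± 0.52 (adjusted p = 0.014) and 2.14 ± 0.52 (adjusted p = 0.0169). The first of these was lost without pre-osteoblast culture 3 (0.055) and the other without that culture (0.063) or osteoblast culture 2 (0.0579). Ddr1, a receptor tyrosine kinase for collagen, lay below pre-osteoblasts by -1.08 ± 0.20 in the lines (adjusted p = 0.00613) and -1.40 ± 0.20 in osteoblasts (adjusted p = 0.00155). Without line 494H it was also higher in the lines than in osteoblasts, by 0.58 (adjusted p = 0.00757).

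All 7 genes of the list of collagen-degrading enzymes were measured. In osteoblasts over pre-osteoblasts 3 rose and 0 fell, where 10.3% and 15.8% of all genes did. In lines over pre-osteoblasts 1 rose and 0 fell (9.96% and 13.5% of all genes), and in lines over osteoblasts 0 rose and 4 fell (14.7% and 12.7%). Fap, a membrane protease that cleaves denatured collagen, stood at 6.91, 6.30 and 6.92 in the lines, 10.47, 9.71 and 9.83 in osteoblasts and 6.12, 5.81 and 5.68 in pre-osteoblasts. Osteoblasts lie far above all other arrays, and exceeded pre-osteoblasts by 4.13 ± 0.24 (17.5-fold, adjusted p = 3.08e-05). The lines exceeded pre-osteoblasts in Fap by 0.84 ± 0.24 (adjusted p = 0.0365), which was lost without line 493H (0.109) or 716H (0.0972), osteoblast culture 3 (0.0542) or pre-osteoblast culture 2 or 3 (0.1 and 0.12) or with array weights (0.06). Ctsk, the collagenolytic cathepsin, exceeded pre-osteoblasts in osteoblasts by 1.80 ± 0.34 (adjusted p = 0.00506). Mmp13, a collagenase of late osteoblasts and hypertrophic chondrocytes, stood at 9.33, 7.72 and 12.91 in the lines, 14.00, 13.12 and 13.93 in osteoblasts and 12.61, 10.95 and 11.69 in pre-osteoblasts. As with Col10a1, line 716H is the highest line and osteoblast culture 2 the lowest osteoblast culture. The lines lay below osteoblasts by -3.69 ± 1.14 (adjusted p = 0.0439), a call that ended when any single array was left out, except line 716H (adjusted p 0.0595 to 0.123), or with only these groups in the fit (0.1). Mmp13 was not called in either comparison with pre-osteoblasts with all arrays in the fit. Its rise of 1.93 in osteoblasts passed the test without line 716H (0.0341) or with only these groups in the fit (0.0192). Without line 716H the lines lay below pre-osteoblasts by -3.22 (adjusted p = 0.0089).

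**Figure D4:**
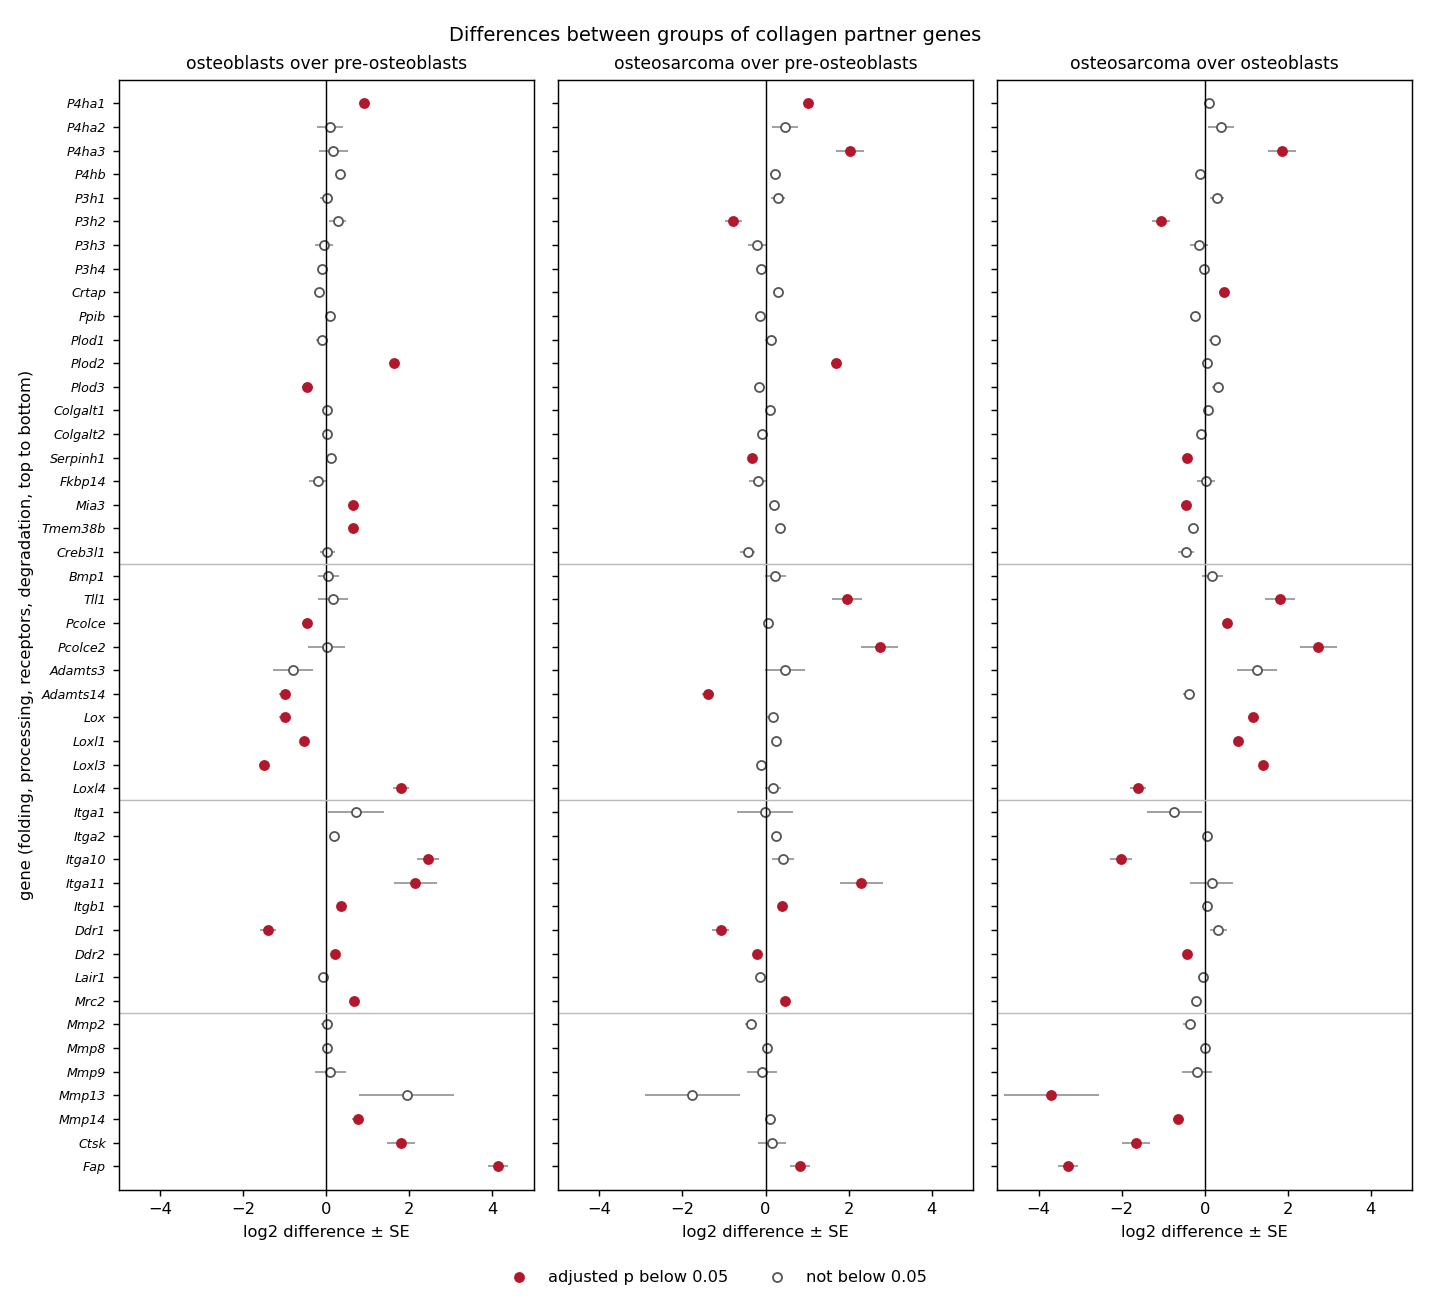
Differences in log2 level between groups for the 46 measured genes that fold, process, bind or degrade collagen, with bars of 1 standard error from limma; filled red points have an adjusted p below 0.05. Fap stands at 4.13 for osteoblasts over pre-osteoblasts, and Lox, Loxl1 and Loxl3 lie opposite to Loxl4 in both comparisons with osteoblasts.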

How the data were processed

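Per probe set, the authors deposited a log2 level made with RMA, with mm9 as the build, per the submitters' processing notes. RMA normalizes between arrays, so differences are relative, and it compresses differences near background. Array medians were 7.43 to 7.56. Of 35556 probe sets, the 21789 with 1 gene symbol in the platform annotation were kept, and for the 999 genes with several probe sets the one with the highest mean was used, which left 19938 genes. No filter on level was set. The members, gene lists and tests were chosen with earlier results of these data known. Arrays are given one by one for Col1a1, Col1a2, Col2a1, Col3a1, Col10a1 and members called with non-overlapping groups and a change of at least 1 log2, and partner genes are the largest called changes per list. Col4a5, Col4a6, Col5a2, Col5a3, Col6a3, Col6a5, Col11a1, Col12a1, Col14a1, Col18a1, Col24a1, Col28a1 and Loxl1 were given so after their values were seen.

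All 9 arrays entered 1 model of 3 group means, in limma 3.58.1 under R 4.3.3 (6 residual and 2.19 prior degrees of freedom). The groups share 1 estimate of spread, so tests of osteoblasts over pre-osteoblasts also carry the spread between lines. Tests were two-sided, with Benjamini-Hochberg adjustment over all genes, and intervals are for single genes. The pipeline was tested on simulated data. Alternatives were filters on dim genes, averaged probe sets, other scalings, an intensity trend, array weights per group, fits of the compared groups alone, a replicate block and leaving out each array. Promoter windows and gene neighbours are RefSeq's for GRCm38.p6, and no coordinates were carried between builds. Trp53, Runx2, Spp1 and the Bglap genes were not analysed here.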

Additional observations from a re-analysis of the deposited data

How the results depend on the processing

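No member or partner gene that was called reversed its direction under any alternative run. Of the collagen calls, 5 of 16 in osteoblasts over pre-osteoblasts (Col24a1, Col4a2, Col4a5, Col8a1 and Col15a1), 9 of 13 in lines over pre-osteoblasts (Col5a3, Col4a1, Col4a2, Col4a5, Col4a6, Col8a1, Col8a2, Col6a1 and Col6a2) and 7 of 11 in lines over osteoblasts (Col5a3, Col10a1, Col4a1, Col4a2, Col4a5, Col15a1 and Col18a1) passed the test under every alternative that included them. Leaving out each array in turn, the members called were 7 to 12 higher and 2 to 9 lower in osteoblasts over pre-osteoblasts, 2 to 5 higher and 8 to 11 lower in lines over pre-osteoblasts, and 1 to 6 higher and 6 to 10 lower in lines over osteoblasts, and 15 to 23 over all groups. Without osteoblast culture 2 and pre-osteoblast culture 2 together, an alternative chosen after seeing the data, 5 in place of 10 rose in osteoblasts over pre-osteoblasts and 6 in place of 2 in lines over osteoblasts. Only this alternative ended the calls of Col8a2, Col13a1 and Col28a1 in osteoblasts over pre-osteoblasts. The same holds for Col28a1 in lines over pre-osteoblasts. With quantile normalization once more, 3 in place of 6 fell in osteoblasts over pre-osteoblasts. In lines over osteoblasts 4 rose among genes above the median level, fewer genes being tested, and 1 with only those groups in the fit. The filter at the median level left out Col24a1, Col4a6, Col8a2, Col13a1 and Col28a1, so it did not test their calls. Leaving out a line, or fitting only the compared groups, kept each difference of osteoblasts over pre-osteoblasts the same. There only the estimated spread and the adjustment over all genes differed. The cause of the other changes was not tested. Among all genes, osteoblasts over pre-osteoblasts had 2049 higher and 3153 lower calls, against 2664 and 2656 with quantile normalization. Lines over osteoblasts had 2936 higher and 2523 lower, against 2735 and 3010 with quantile normalization and 2603 and 2984 with arrays centred on their medians. The replicate numbers of the cultures are taken to name samples only, since the labels call each an independent sample. The deviations of same-numbered cultures correlated at 0.152, 0.176 and 0.0278, and those of differently numbered cultures at -0.16 to 0.0766. These correlations do not settle whether same-numbered cultures were paired. With the replicate number as a block and only these groups in the fit, 11 members rose and 5 fell in osteoblasts over pre-osteoblasts. The fit of only these groups without the block gave 13 and 6. With 3 arrays a group, the spread of each gene is known poorly, and dim members near 7 have compressed differences.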

Other observations

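Several collagen genes had the same deposited value on more than 1 array. Col11a1 stood at 8.6859 on line 493H and on osteoblast cultures 1 and 3. Col4a4 stood at 7.4563 on all 3 osteoblast cultures and on pre-osteoblast culture 1.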
